A study of Mus musculus with 24 samples.

Results

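H3K27ac, the acetylation of lysine 27 on histone H3, was compared between control limb buds of mouse embryos at E12.5 and a second limb bud library, through 1 list of called peaks from each. The second list carries the name Sox9cKO E12.5 on its file, while the title of its sample reads Sox9null E11.5. It was chosen here by its file name and is called the Sox9cKO-named list throughout. The 2 libraries are 2 of the 24 samples of the series and 2 of its 4 H3K27ac peak lists. There were 32821 control peaks, spanning 66.7 Mb, and 28419 peaks spanning 59.7 Mb in the Sox9cKO-named list, out of 134222 peaks in the 4 lists. Control, Sox9null and Sox9cKO are the genotypes that the sample titles give. The sources used here do not give the strain, the Cre driver of the conditional knockout, the alleles that the controls carried, whether limb buds of several embryos were pooled, or whether fore or hind limbs were taken. The other H3K27ac lists are the control E11.5 list and a list whose file reads Sox9null E11.5 under a sample title of Sox9cKO E12.5, called the Sox9null-named list.

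Each side had 1 library, so no difference between genotypes was tested, and every value describes these 2 libraries. Read depth was not given, and the number and width of called peaks can move with it. Unless stated, the 28419 highest-scored peaks of each list were compared, which left out 4402 low-scored control peaks. These covered 62.7 Mb in the control and 59.7 Mb in the Sox9cKO-named list, with median widths of 1866 and 1778 bp. The score is the authors' own value for each peak, and a peak's rank is given as its score percentile within its own list, from 0 for the lowest to 100 for the highest. A score of 3100 was shared by 1325 control peaks and 702 peaks of the Sox9cKO-named list, and these tied peaks have the percentiles 97.3 and 98.6.

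H3K27ac is laid down at active promoters and enhancers by the acetyltransferases p300 and CBP, and its peaks are used as a map of active regulatory DNA. Sox9 is the transcription factor that limb mesenchyme needs to condense and become cartilage. It acts with Sox5 and Sox6 on enhancers of genes for cartilage collagens, aggrecan, matrilins and link proteins, and loss of Sox9 from limb mesenchyme prevents cartilage from forming.

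The sequences below belong to starts of cartilage genes where the control list had a peak and the Sox9cKO-named list had none, and to the cartilage microRNA gene that lay inside a control peak alone. Promoter sequences are the 250 bases before the gene start, read 5′ to 3′ on the gene's strand, from RefSeq on GRCm38.p6, which is the mm10 assembly of the peak lists. Capitals mark CG dinucleotides in the promoters and the seed, bases 2 to 8, in the microRNA. Matn4 encodes matrilin-4 and lies on the minus strand at chr2:164405161-164405410.
Matn4: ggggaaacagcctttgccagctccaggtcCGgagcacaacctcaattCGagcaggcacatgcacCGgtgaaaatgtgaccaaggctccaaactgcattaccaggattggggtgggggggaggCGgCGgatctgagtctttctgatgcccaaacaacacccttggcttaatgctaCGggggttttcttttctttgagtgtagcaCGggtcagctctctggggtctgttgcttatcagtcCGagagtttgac
Chad encodes chondroadherin, a leucine-rich cartilage matrix protein, and lies on the plus strand at chr11:94564797-94565046.
Chad: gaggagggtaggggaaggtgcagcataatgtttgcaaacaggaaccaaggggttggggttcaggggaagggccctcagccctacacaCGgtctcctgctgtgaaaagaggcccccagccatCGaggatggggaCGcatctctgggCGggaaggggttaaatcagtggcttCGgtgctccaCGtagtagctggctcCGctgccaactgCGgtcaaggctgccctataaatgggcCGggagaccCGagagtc
Nkx3-2 encodes a homeobox transcriptional repressor that promotes early chondrogenesis, and lies on the minus strand at chr5:41764221-41764470.
Nkx3-2: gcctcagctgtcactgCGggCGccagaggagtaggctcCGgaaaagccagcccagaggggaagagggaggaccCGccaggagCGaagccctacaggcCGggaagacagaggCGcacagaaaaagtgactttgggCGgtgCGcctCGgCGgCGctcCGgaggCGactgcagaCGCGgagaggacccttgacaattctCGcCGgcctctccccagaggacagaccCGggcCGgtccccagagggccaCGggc
The microRNA is made from an intron of Wwp2, on the plus strand at chr8:107551288-107551308.
miR-140-3p: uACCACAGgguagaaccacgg

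Each of the 3 promoter windows lay wholly inside a control peak, and no peak of the Sox9cKO-named list reached within 1000 bp of these gene starts. They hold 8, 10 and 21 CG dinucleotides. Short forms of the SOX recognition sequence were searched on both strands, from 250 bases before to 50 bases after each RefSeq start. The first word searched was ACAAAG. The second word searched was AACAAT, and this one can overlap the next. The third and last word searched in the windows was ACAATG. None was found in these 3 windows, which says only that these letters are not there. Of 21263 such windows of protein-coding genes, 29.8% held at least 1 of the 3 words.

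Most genes of cartilage matrix carried less acetylated chromatin in the Sox9cKO-named list than in the E12.5 control. Papss2, Chst11 and Cspg4, genes of sulphation and proteoglycans, were covered by at least 2-fold less, while Col2a1 was covered by 12.2 and 11.8 kb. For each gene the length covered by peaks was summed from 20 kb before the gene to 20 kb after it. Of 33 cartilage matrix genes, 28 had a peak in at least 1 list, and 22 of these were covered by less in the Sox9cKO-named list and 6 by more. Over all 15298 protein-coding genes with a peak the shares were 54.1% less and 45.8% more. Coverage was at least 2-fold and 2 kb lower for 6 of the 28 genes, or 21.4%, against 1.20% of all genes, and that much higher for 0 of 28 against 0.647%. All gene lists were chosen with earlier results of these data known. Part of this contrast, and of those below, may be fixed by that choice. The median difference over the 33 genes was -1.10 kb. Over the 28 with a peak it was -1.47 kb, against -0.038 kb over all genes with a peak. The covered length summed over the list was 213 kb in the control and 142 kb in the Sox9cKO-named list. A few large windows weigh on these sums, with 55.04 and 33.5 kb at Wwp2 and 18.3 and 8.48 kb at Chst11. In bulk tissue, fewer cells of a type and less acetylation per cell cannot be told apart.

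The count depended on which lists were set against each other. With the lists paired by sample title, so that the E12.5 control met the Sox9null-named list, less coverage was seen for 24 cartilage matrix genes and more for 7, and 12 (38.7%) passed the threshold downward. Over all genes in that pairing 41.9% were covered by less, 2.97% passed downward, and the median was 0.139 kb. Col27a1 was then covered by more, and Prg4, Pcolce2, Col9a1 and Epyc by less. With the Sox9cKO-named list set against the E11.5 control, the stage its sample title gives, 13 (43.3%) were covered by less and 16 by more, 0 passed the threshold downward and 2 upward. Over all genes in that setting 40.2% were covered by less, 1.42% passed downward and 3.35% upward. At equal numbers of peaks the E11.5 control covered 47.2 Mb and the Sox9cKO-named list 59.7 Mb. Wwp2, Papss2, Cnmd, Hapln1, Csgalnact1 and Col2a1 were then covered by more in the Sox9cKO-named list. With only the 10000 highest-scored peaks of each list, 21 cartilage matrix genes had a peak, 15 (71.4%) covered by less and 6 by more. Over all genes with a peak 51.6% were covered by less in that setting. The threshold was passed downward by 3 (14.3%, against 3.58% of all genes) and upward by 1 (against 3.21% of all genes). The median over all 33 genes, with or without a peak, was 0 kb.

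Among the genes that sulphate or build proteoglycans the differences ranged widely. Papss2, which makes the sulphate donor, had 9.04 kb in 4 control peaks and 1.33 kb in 1 peak of the Sox9cKO-named list. The peak at its start was in both lists, at percentile 57.3 and 36.9, while the other 3 control peaks, at percentiles 46.2, 52.4 and 31.7 inside the gene, had no partner. Chst11, a chondroitin 4-sulphotransferase, had 18.3 kb in the control and 8.48 kb in the Sox9cKO-named list. Of its 8 control peaks 3 stood alone, side by side within the gene, and the strongest of them, chr10:83129149-83131942, was at percentile 71.5. Csgalnact1, which starts chondroitin chains, had 5.13 and 2.39 kb, and the xylosyltransferase gene Xylt1 had 3.66 and 1.94 kb, but 1.91 and 1.94 kb with the top 10000 peaks. Cspg4, a membrane chondroitin sulphate proteoglycan, had 11.3 kb in the control and 3.57 kb in the Sox9cKO-named list. The intragenic control peak chr9:56878733-56883739 in Cspg4 was the highest-ranked of all regions found in the control alone, at percentile 77.3.

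Wwp2, a ubiquitin ligase gene that hosts microRNA-140, had the second largest difference downward in covered length of any gene, with 55.04 kb in 19 control peaks and 33.5 kb in 16 peaks of the Sox9cKO-named list. All 16 peaks of the latter overlapped a control peak, while 5 of the 19 control peaks stood alone. Matched peaks were also narrower, and a control peak of 10991 bp at percentile 97.3 faced peaks of 3720 and 2878 bp at percentiles 86.9 and 75.3. The hairpin of microRNA-140, chr8:107551244-107551313, lay inside a control peak of 8167 bp with the tied top score. The peak of the Sox9cKO-named list at that place was 4900 bp wide, at percentile 77.5, and ended before the hairpin.

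Matrix protein genes differed among themselves. Matn4 had 6.46 kb in 3 control peaks and 0 kb in the Sox9cKO-named list, and its neighbour Rbpjl shares the peak at its start. Cnmd, which encodes the anti-angiogenic chondromodulin, had 4.67 and 1.01 kb, with a control peak at percentile 66.9 facing one at percentile 13.0. Hapln1, the cartilage link protein gene, had 5.79 and 3.05 kb, and Col27a1, a fibrillar collagen gene, had 8.47 and 5.36 kb. Col2a1, the main cartilage collagen gene, had 12.2 kb in the control and 11.8 kb in the Sox9cKO-named list, and 11.9 and 12.1 kb after scaling to total covered length. Its 3 control peaks each had a partner, and the peak over its start was at percentile 97.3 in the control and 91.8 in the Sox9cKO-named list. Acan, Matn1, Ucma, Snorc and Susd5 had 0 kb in both lists under the equal-number rule, although Ucma had 1.59 kb among all deposited control peaks.

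The 6 genes with more coverage in the Sox9cKO-named list were Prg4, Pcolce2, Col9a1, Epyc, Itih5 and Hapln3. Prg4, which encodes the joint lubricant lubricin, had 0.996 kb in the control and 2.92 kb in the Sox9cKO-named list. A region near Prg4 had the largest upward shift in rank of all regions in both lists, from percentile 2.86 to 73.5. Pcolce2, an enhancer protein of procollagen processing, had 3.57 and 6.601 kb, and Col9a1, a collagen on the surface of cartilage fibrils, had 7.09 and 8.90 kb. The plot of cartilage and regulator genes shows these opposite directions within 1 list.

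**Figure D1:**
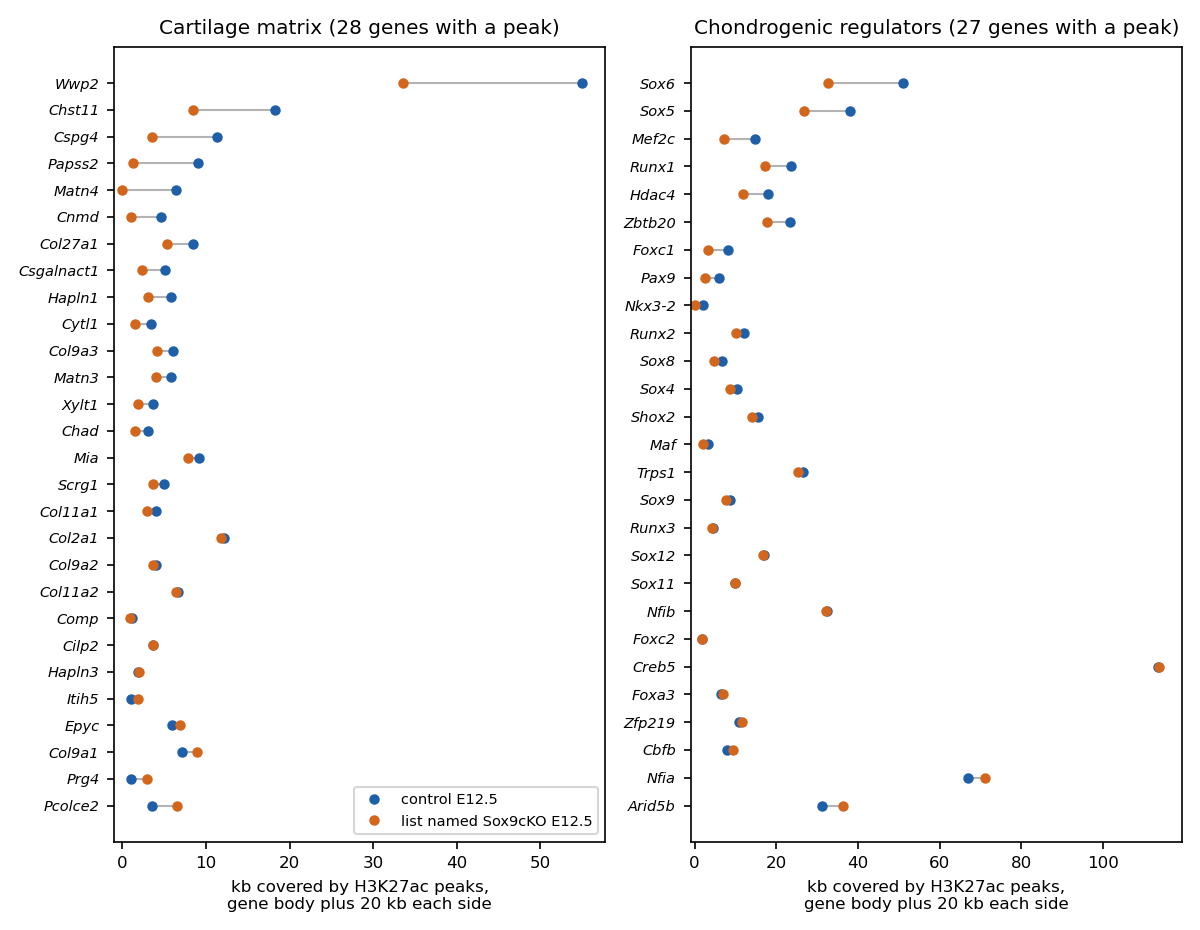
Length covered by H3K27ac peaks (kb, horizontal axis) from 20 kb before to 20 kb after each gene, for the 28 cartilage matrix genes and 27 chondrogenic regulators with a peak, ordered by difference; blue points are the control E12.5 list and orange points the Sox9cKO-named list, 1 library each. Wwp2 has 55.04 and 33.5 kb and Sox6 51.0 and 32.6 kb, while Prg4, Pcolce2 and Arid5b lie on the other side. Nfia does too, but not with all deposited peaks.

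The same peaks were also counted as separate regions. Peaks of both lists were merged into 32296 regions, of which 24352 lay in the window of a protein-coding gene. Of 95 regions in the windows of cartilage matrix genes, 31 were marked in the control alone, or 32.6%, against 13.0% of regions in all gene windows. The Sox9cKO-named list alone marked 4, or 4.21%, against 11.9% of all. The limit from how the gene lists were chosen holds for these shares too. Of the 31 control regions 8 were above percentile 50, and of the 4 others 0 were. Among 60 cartilage regions marked in both lists, 43 had a lower percentile in the Sox9cKO-named list, where 48.3% of all such regions did, and the median shift was -4.76 points.

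**Figure D2:**
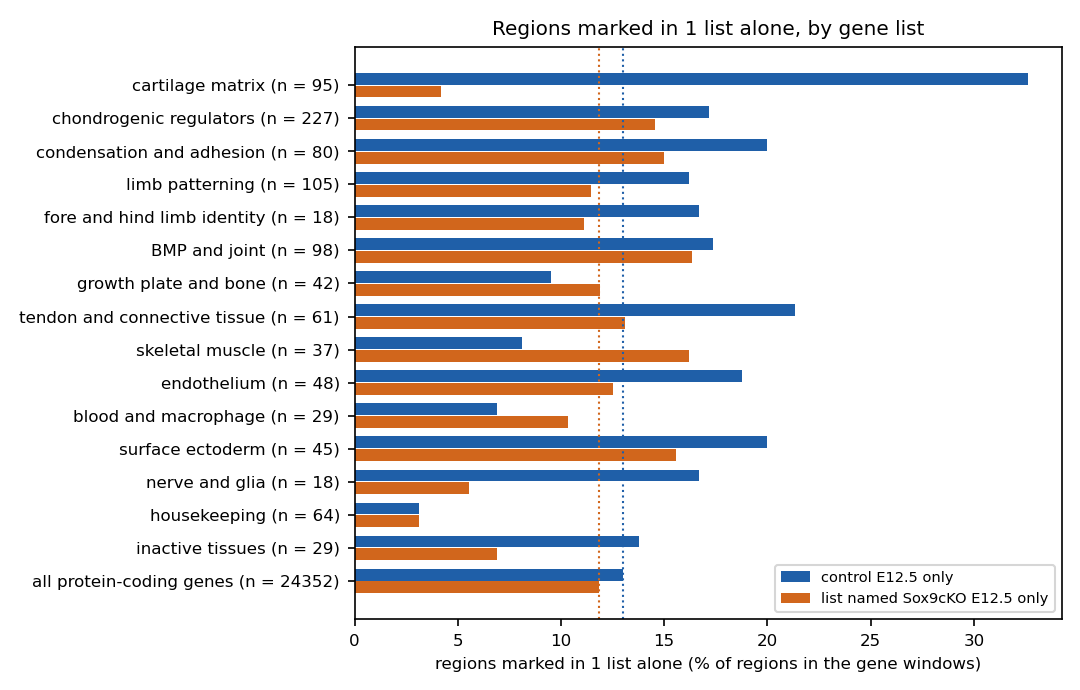
Share of merged regions marked in 1 list alone (%, horizontal axis) among the regions in the gene windows of each gene list, with the number of regions in brackets; blue bars are regions in the control E12.5 list alone, orange bars in the Sox9cKO-named list alone, and dotted lines mark the shares over all gene windows (13.0% and 11.9%). The cartilage matrix list has 32.6% against 4.21%, the widest gap among the lists shown.

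**Figure D3:**
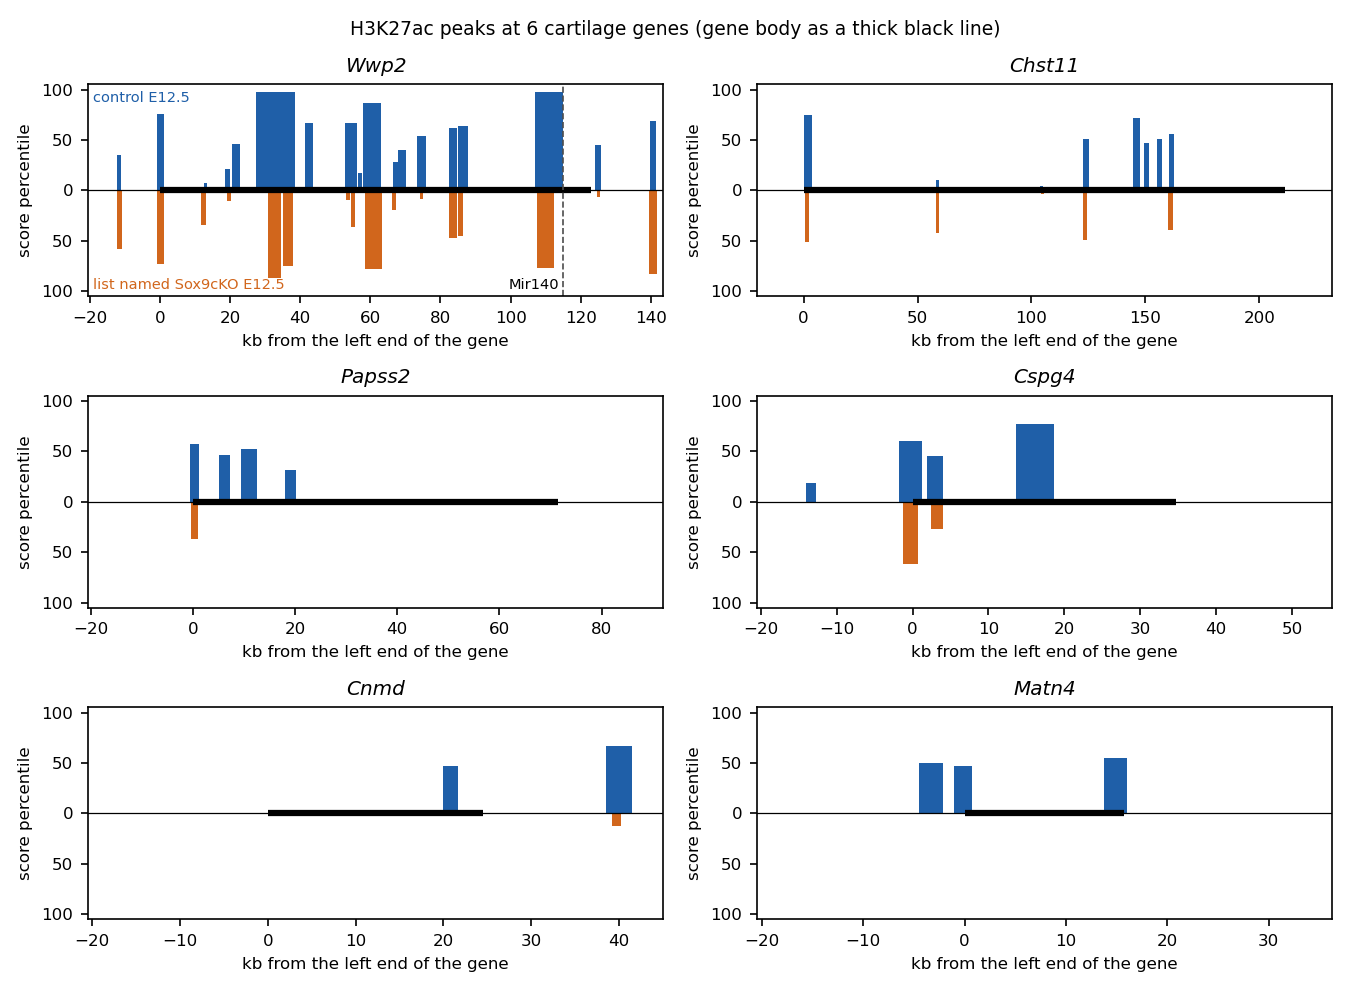
Peaks at 6 cartilage genes, by distance from the left end of the gene (kb, horizontal axis) and score percentile within the list (vertical axis); control E12.5 peaks point up in blue, peaks of the Sox9cKO-named list point down in orange, the black line is the gene body, and the dashed line in Wwp2 marks the microRNA-140 hairpin. Matn4 has 3 control peaks and none below the axis, and Papss2 has 4 against 1.

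Chondrogenic regulators were also covered by less. In kb the differences at Sox5 and Sox6 were larger than at Sox9 itself, but neither gene passed 2-fold. Covered kb can rise with gene length, and the whole Sox9 window had only 8.77 kb in the control and 7.76 kb in the Sox9cKO-named list. Of 32 regulators 27 had a peak, and 20 of these (74.1%) were covered by less and 7 by more. Over all genes with a peak the shares were 54.1% and 45.8%. The median difference was -0.674 kb over the 32. Over those with a peak it was -1.16 kb, against -0.038 kb over all such genes. Past 2-fold and 2 kb there were 4 with less, or 14.8% of those with a peak, against 1.20% of all genes. There were 0 with more, against 0.647%. These 4 were Nkx3-2 (2.15 kb in the control, 0 kb in the Sox9cKO-named list), the forkhead gene Foxc1 (8.19 and 3.18 kb), the paired-box gene Pax9 (5.995 and 2.60 kb) and the MADS-box gene Mef2c (14.9 and 7.14 kb). Against the E11.5 control the direction turned, with 10 regulators (37.0%) covered by less, 17 by more and a median of 0.2 kb, close to the 40.2% and 0.155 kb over all genes in that setting. Sox5 (25.4 and 26.8 kb), Sox6 (23.4 and 32.6 kb) and Mef2c (4.82 and 7.14 kb) were then covered by more in the Sox9cKO-named list. Scaling each list to its total covered length moved the median of all genes with a peak to 0.139 kb. In that setting 37.7% of them were covered by less. The regulator median over the 32 was then -0.0611 kb, with 16 (59.3%) less and 11 more.

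Sox6 had 51.0 kb in the control and 32.6 kb in the Sox9cKO-named list, and Sox5 had 38.0 and 26.8 kb. In the Sox6 window 7 of 18 control peaks stood alone, against 3 of 16 peaks of the Sox9cKO-named list. In the Sox5 window the counts were 4 of 17 and 2 of 15. The largest downward shift in rank of any region in both lists was inside Sox5, at chr6:144054333-144058392, where a control peak of 4.06 kb at percentile 79.2 faced 0.891 kb at percentile 0.329. A region downstream of Sox6, chr7:115380121-115383920, was at percentile 58.7 in the control and 0.0229 in the Sox9cKO-named list. The peak over the start of Sox6 stayed high in rank, at 97.3 and 92.8, but was 10842 bp wide in the control and 4895 bp in the Sox9cKO-named list.

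Among the other regulators, Runx1 had 23.5 kb in the control and 17.2 kb in the Sox9cKO-named list, the histone deacetylase gene Hdac4 had 17.9 and 11.9 kb, and the zinc finger gene Zbtb20 had 23.3 and 17.6 kb. Creb5, the gene of a CREB-family factor, had the most coverage of the list and almost the same in both, 113.4 and 113.6 kb. Nfib, a nuclear factor I gene, had 32.3 kb in each. Nfia had 66.9 and 71.2 kb, a direction that turned with all deposited peaks (71.7 and 71.2 kb). With these Creb5 had 118.6 and 113.6 kb. Arid5b, the gene of a chromatin partner of Sox9, had 31.2 and 36.2 kb. Sox11 and Sox12, of the SoxC group, had 9.82 and 9.79 kb and 17.0 and 16.9 kb. The regulators' windows held 227 regions, 39 in the control alone (17.2%) and 33 in the Sox9cKO-named list alone (14.5%), beside 13.0% and 11.9% over all gene windows.

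At Sox9, chr11:112782210-112787757, the control list had 1 peak of 8770 bp with the tied top score, which covered 81.3% of the gene. The Sox9cKO-named list had 3 peaks, of 885, 5528 and 1351 bp, which covered 55.8%. The widest of these, at percentile 97.1, covered the gene start, and no peak covered the 2453 bp chr11:112784128-112786580 inside the gene. In the Sox9null-named list 54.3% of the gene was covered and in the E11.5 control 96.6%. The deserts beside Sox9 had slightly more coverage in the Sox9cKO-named list, with 53.2 kb in the control and 56.7 kb in the Sox9cKO-named list between Gm11677 and Sox9, and 25.8 and 26.9 kb between Sox9 and Slc39a11.

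Genes of BMP signalling and joints moved both ways, with 17 of 27 (63.0%) covered by less and 10 by more. Over all genes with a peak 54.1% were covered by less, and 1.20% passed the threshold downward and 0.647% upward. The BMP and joint median was -0.567 kb over 28 genes. The receptor gene Bmpr1b, needed for digit cartilage, had 9.42 kb in the control and 2.59 kb in the Sox9cKO-named list, and the antagonist gene Nog had 5.98 and 2.07 kb. Both passed the threshold downward. Bmp5, a BMP ligand gene, had 3.83 and 9.01 kb and passed it upward, and Gdf5, the ligand gene that marks the joint interzone, had 7.62 and 12.1 kb. Erg, an ETS factor gene of joint cartilage and endothelium, had 30.4 and 19.3 kb. Condensation and adhesion genes had a median of -0.833 kb, with 14 of 22 (63.6%) covered by less and 0 past the threshold. Among them Vcan, which encodes the versican of precartilage matrix, had 15.8 and 9.25 kb and Col1a1 had 13.1 and 9.16 kb, while the cadherin gene Cdh2 had 3.19 and 4.76 kb.

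Limb patterning genes had 25 of 37 (67.6%) covered by less, against 54.1% of all genes with a peak. Their median was -0.376 kb, which became 0.116 kb after scaling to total covered length. Only Irx5, an Iroquois homeobox gene, passed the threshold, with 7.70 and 3.01 kb. That is 2.70% of the list, against 1.20% of all genes passing downward. The hedgehog effector gene Gli3 had 25.4 and 19.6 kb and the limb mesenchyme homeobox gene Prrx2 had 40.8 and 44.7 kb, and both turned with the top 10000 peaks (7.40 and 8.41 kb, 39.04 and 36.5 kb). Genes of growth plate and bone had 5 of 13 (38.5%) covered by less and a median of 0 kb. Fgfr2, an FGF receptor gene, had 28.5 and 16.7 kb, and the alkaline phosphatase gene Alpl had 1.22 and 3.28 kb. Col10a1, Mmp13 and Ibsp, which mark later growth plate and bone, had 0 kb in both lists. Of 16 tendon and connective tissue genes, 11 (68.8%) were covered by less, and Col14a1 passed the threshold, with 2.13 and 0 kb.

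Of 7 genes of fore and hind limb identity, 5 were covered by less in the Sox9cKO-named list and 2 by more. The share with less was 71.4%, against 54.1% of all genes with a peak. Tbx5, the forelimb T-box gene, had 3.76 kb in the control and 0 kb in the Sox9cKO-named list, against 31.7 kb in the E11.5 control and 32.6 kb in the Sox9null-named list. Tbx4, the hindlimb T-box gene, had 34.4 and 38.1 kb in this pair and 27.7 kb in the E11.5 control and 30.0 kb in the Sox9null-named list. Pitx1, which directs hindlimb form, had 18.3 and 17.9 kb in this pair (15.1 and 15.3 kb with the top 10000 peaks) and 14.8 and 17.5 kb in the others. Isl1, a gene of early hindlimb outgrowth, had 1.56 and 2.31 kb. At Tbx5 both lists of this pair therefore lay below both others, while at Tbx4 and Pitx1 all 4 lists had peaks. This pair and the other each hold a control and a list named for loss of Sox9. Limb and stage cannot be told apart as sources of these values, and the part of genotype was not tested.

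Markers of other cells in the limb bud were looked at beside the cartilage genes. Over all genes with a peak, 54.1% were covered by less and 45.8% by more. Skeletal muscle genes had 6 of 12 covered by less and 6 by more, and summed to 99.2 kb in the control and 103 kb in the Sox9cKO-named list. The muscle determination genes Myod1, Myf5, Myf6, Pax3 and Pax7 were at 0 kb in both. Endothelial genes had 4 covered by less and 7 by more, summing to 95.5 and 81.1 kb, with Kdr, Tie1, Cldn5 and Emcn at 0 kb in both. Blood and macrophage genes had 4 and 8, summing to 65.2 and 71.2 kb. Surface ectoderm genes had 11 and 6, summing to 70.0 and 62.7 kb, and nerve and glia genes had 9 and 0, summing to 33.3 and 29.6 kb, with Tubb3 and Mbp at 0 kb in both. Past the threshold there were 0 endothelial, blood or nerve genes, the muscle genes Ttn (2.22 and 0 kb) and Tnni1 (1.996 and 4.34 kb), and the epithelial gene Grhl2 (5.47 and 2.43 kb). Only 11 endothelial, 12 blood and 9 nerve genes had a peak. Over all genes with a peak 1.20% passed downward and 0.647% upward, so 0 among so few genes says little. Housekeeping genes split evenly, 13 and 13, and summed to 152.2 and 152.5 kb. The part of cell composition in the cartilage result was not tested.

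Over all genes, 184 were covered by at least 2-fold and 2 kb less and 99 by that much more. In kb the largest differences downward past 2-fold were at Aff3, a gene of the AF4 family (30.4 and 13.8 kb), Fbn2, the fibrillin-2 gene (24.9 and 10.04 kb), Gmds, a GDP-fucose enzyme gene (19.8 and 7.43 kb), Chst11, Vps53 (15.2 and 5.98 kb), the survival gene Bcl2 (13.6 and 4.70 kb), Ankfn1 (11.9 and 3.70 kb), Rbpjl, Cspg4 and Mef2c. Thus 3 of the 10, Chst11, Cspg4 and Mef2c, belong to the cartilage or regulator lists. Against the E11.5 control, Fbn2, Bcl2, Ankfn1 and Mef2c were covered by more in the Sox9cKO-named list. Without a fold limit the largest were at Aopep (123.6 and 87.3 kb), Wwp2 and Sox6.

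Upward, the largest past 2-fold were at Pcsk6, a gene of a proprotein convertase (11.99 and 24.5 kb), Lmo7 (4.84 and 13.6 kb), the formin gene Fmn1 (6.51 and 15.01 kb), Hrh4 (3.71 and 10.1 kb) and Fam240b (0 and 6.35 kb). Bmp5, Mrps28, Piwil4, Fut4 and 1700012B09Rik followed, and the last 3 are neighbours on chromosome 9 with shared peaks. No cartilage matrix or regulator gene was among these 10. With all deposited peaks Pcsk6 (13.98 and 24.5 kb), Bmp5 (5.70 and 9.01 kb) and 1700012B09Rik (5.38 and 8.47 kb) no longer passed 2-fold. With the lists paired by sample title, Lmo7, Fam240b, Bmp5, Piwil4, Fut4 and 1700012B09Rik turned to less coverage, and with the top 10000 peaks Fmn1, Mrps28 and 1700012B09Rik did. Pcsk6 had 11.4 kb in the E11.5 control and 18.7 kb in the Sox9null-named list.

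The levels of the same genes in the other 2 lists are set beside these. The 184 genes were chosen for high coverage in the E12.5 control, so a lower level in any other list is partly fixed by that choice, and nothing is read from it. Their median covered length was 4.88 kb in the E12.5 control and 1.85 kb in the Sox9cKO-named list, and it was 2.43 kb in the E11.5 control and 2.64 kb in the Sox9null-named list. Papss2 had 1.11 kb and Cnmd 0 kb in the E11.5 control. Foxc1 had 5.02 kb there, between the E12.5 control and the Sox9cKO-named list. Chad had 2.65 kb there, against 3.04 kb in the E12.5 control and 1.49 kb in the Sox9cKO-named list. In the pair named for E11.5 by file, the E11.5 control against the Sox9null-named list, less coverage was seen for 14 cartilage matrix genes and more for 16, 0 passed the threshold either way, and the median was 0 kb. Over all 16480 genes with a peak in that pair, 4428 (26.9%) were covered by less and 12043 by more, 37 and 185 passed the threshold, and the median was 0.352 kb. Stage and genotype cannot be told apart for the Sox9cKO-named list, since its file and its sample title disagree on both, and the same holds for the Sox9null-named list.

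Seen as whole lists, the 2 libraries shared most of their peaks. Of control peaks 82.9% (Wilson 95% interval 82.5 to 83.4%, which covers counting error only) were overlapped by at least 1 bp in the Sox9cKO-named list, and 84.1% (83.7 to 84.5%) the other way. The top 5000 peaks of each list by score were all overlapped by the 28419 peaks of the other list. In the last rank band 40.7% and 43.8% were. With only the top 5000 of both lists set against each other, 89.9% and 90.1% were overlapped. Peaks within 1000 bp of a gene start were overlapped in 96.3% and 96.8%, against 74.3% and 76.9% inside genes and 71.9% and 73.4% more than 100 kb from any gene. Peaks of the Sox9cKO-named list were overlapped more often by the E12.5 control (84.1%) than by the Sox9null-named list (76.8%) or the E11.5 control (73.6%), all at 28419 peaks. At that number the lists overlapped with covered unequal lengths, 62.7, 54.1 and 47.2 Mb in the same order. Overlap by 1 bp can rise with covered length, and its part in this order was not tested.

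**Figure D4:**
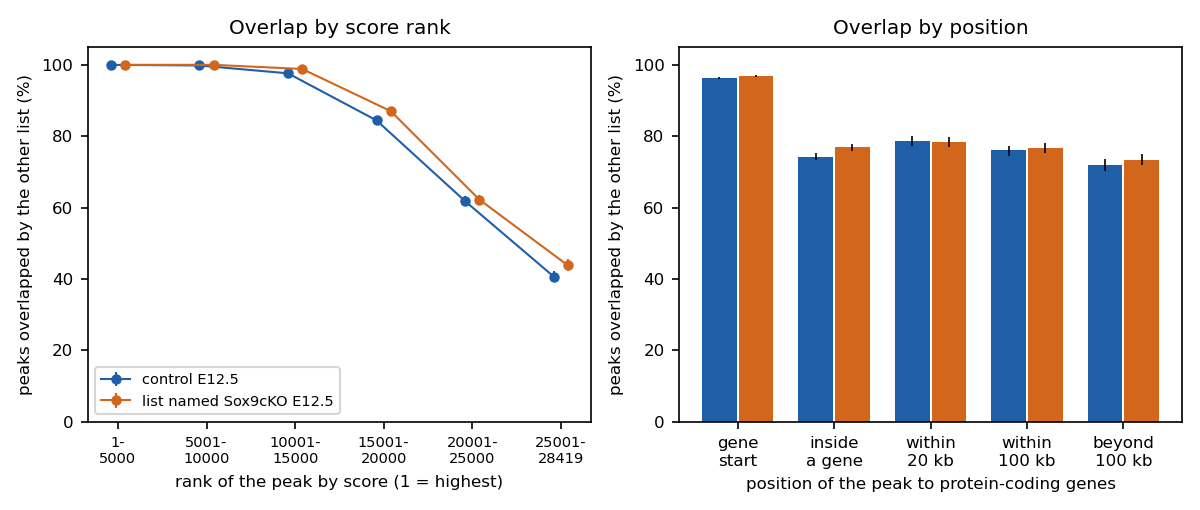
Share of peaks overlapped by at least 1 bp in the other list (%, vertical axis) by score rank (left) and by position to protein-coding genes (right), for control E12.5 peaks (blue) and peaks of the Sox9cKO-named list (orange); error bars are Wilson 95% intervals for counting error. Overlap drops from 100% in the top 5000 to 40.7% and 43.8% in the lowest band. Over all ranks it is highest at gene starts, where peaks also rank higher.

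Of the 32296 merged regions 71.0% were marked in both lists, 4847 (15.0%) in the control alone and 4517 (14.0%) in the Sox9cKO-named list alone. Regions in 1 list alone were weak, with median percentiles of 15.1 and 14.4, and 79 of the control's and 33 of the other's were above percentile 50. Of the regions in the Sox9cKO-named list alone, 23.4% were overlapped by a low-scored control peak left out by the equal-number rule. In neither the E11.5 control nor the Sox9null-named list were 61.9% of the control-only and 56.4% of the other regions found, against 10.4% of regions in both.

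Several of the highest-ranked of the 4847 control-only regions were in cartilage genes. Of the 8 highest, 3 lay in windows of the cartilage matrix or regulator lists, at Cspg4, Chst11 and Wwp2 (chr8:107477679-107479904, percentile 66.9). The others were nearest to Cacna2d2, Tars, Tmem167, Lama5 and Chst3, which is a chondroitin 6-sulphotransferase gene outside the list. Of the 50 highest, 5 lay in such windows, against 1 of the 50 highest in the Sox9cKO-named list alone and 0.997% of all regions. These gene lists were chosen with earlier results of these data known, which may fix part of this. The 8 highest of the Sox9cKO-named list alone were nearest to Cbln4, Thrb, Spock1, Pitpnm2, Ribc2, Creb5, Adk and Wdr11. The first of these, between Dok5 and Cbln4, was at percentile 64.6 and overlapped a left-out control peak.

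Scores of regions in both lists had similar orders, with a Spearman correlation of the scores of 0.921 across 22932 regions, which are not independent replicates. A shift of at least 25 percentile points was downward in 743 regions (3.24%) and upward in 671 (2.93%). Beyond 100 kb from genes the shares were 6.03% and 4.23%. In the windows of all protein-coding genes the shares were 2.68% and 2.54%. In cartilage matrix windows 6 of 60 shifted down and 6 up, and in regulator windows 12 of 155 shifted down and 5 up.

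Gene starts differed little between the lists. Of 11482 genes with a peak at the start in the control, 342 (2.98%) had none in the Sox9cKO-named list, and of 11439 with one in the latter, 299 (2.61%) had none in the control. For 96 of the 299 a left-out control peak lay there. Only 10 and 5 of these genes had a start peak above percentile 50. The highest in the control alone were Igflr1 (percentile 85.3), Aloxe3 (69.3), Samd10 (67.3), the Notch glycosyltransferase gene Lfng (66.8), the laminin gene Lama5 (66.1), Irx1 (56.5), and Matn4 with Rbpjl (55.0). The highest in the Sox9cKO-named list alone were Nrbp2 (61.2), Tjp3 (59.0) and Cd302 (56.1).

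Among cartilage matrix genes 3 starts were marked in the control alone, those of Matn4, Chad and Mia, 1 in the Sox9cKO-named list alone, that of Itih5, and 14 in both. Nkx3-2 was the 1 regulator whose start was marked in the control alone, at percentile 43.0, and 20 were marked in both. The Chad start peak was weak, at percentile 16.5, and the Mia peak was at 30.3. The SOX words were found in 18.2% of promoter windows of genes whose start was marked in the control alone. The share was 23.8% for genes marked in the Sox9cKO-named list alone, 22.6% for those marked in both and 39.6% for those marked in neither. Every RefSeq promoter of a gene was counted, including any without a peak of its own. In the 250 bases before the start, the median CG counts for genes marked in 1 list alone were 13 and 11, in the same order. Promoters of genes marked in both lists had a median of 16 CG there, and those of genes marked in neither 3.

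Distal acetylation was compared over gene deserts, the stretches of at least 100 kb without a protein-coding gene. Of 1866 deserts with a peak, 57.3% were covered by less in the Sox9cKO-named list and 42.5% by more. Coverage was at least 2-fold and 2 kb lower in 79 (4.23%) and higher in 44 (2.36%). The largest difference downward was between Rps24 and Zmiz1, with 226.8 and 189.1 kb, followed by Prickle1 to Adamts20, with 79.0 and 51.4 kb. The desert from Mpdz to Nfib had 67.1 and 45.1 kb, although the Nfib window itself did not differ. Between Tmem167 and Atp6ap1l coverage was 30.1 and 13.0 kb, the 1 desert among the 8 largest of these that passed 2-fold.

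The deserts beside Sox5 and Sox6 had less coverage in the Sox9cKO-named list than in the E12.5 control, as the genes did. Between Etnk1 and Sox5 coverage was 18.7 kb in the control and 5.97 kb in the Sox9cKO-named list, and between Sox5 and Bcat1 it was 9.57 and 4.34 kb, both past 2-fold. The desert from Insc to Sox6 had 15.7 and 9.12 kb. In the E11.5 control these deserts had 4.48, 5.26 and 5.49 kb in the same order. Against that list Etnk1 to Sox5 and Insc to Sox6 were covered by more in the Sox9cKO-named list, and Sox5 to Bcat1 by less.

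The largest difference upward was between Atp5g3 and Lnpk, the desert on the centromeric side of the HoxD cluster that holds digit enhancers, with 79.6 kb in the control and 102 kb in the Sox9cKO-named list. The desert on the other side of HoxD, from Mtx2 to Gm50595, differed in the opposite direction, with 15.7 and 7.70 kb. Further deserts with more coverage lay between Dok5 and Cbln4, with 27.3 and 47.5 kb, and between Sall1 and Tox3, with 27.7 and 43.3 kb. The desert from Bbs9 to Bmper, beside the gene of a BMP-binding protein, had 21.0 and 33.3 kb, and the small coverage between Evx1 and Hibadh beside HoxA was 1.73 and 7.84 kb.

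**Figure D5:**
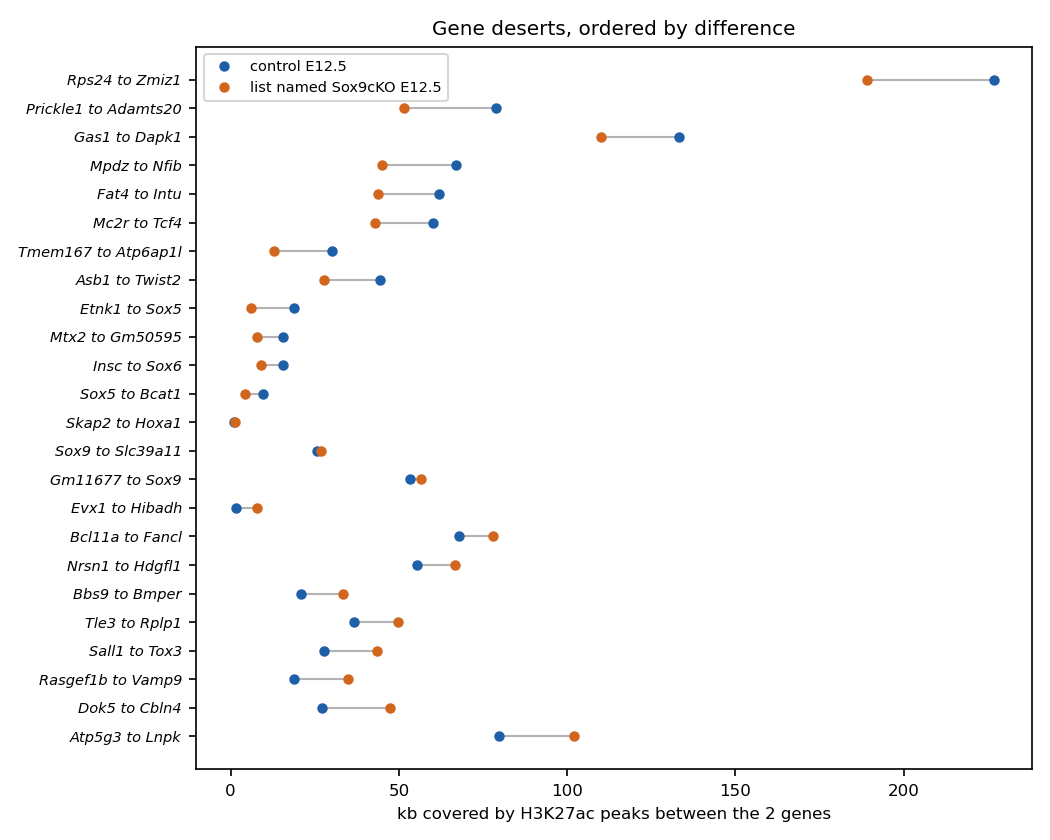
Length covered by H3K27ac peaks (kb, horizontal axis) in gene deserts, named by the genes at their ends and ordered by difference, for the control E12.5 list (blue) and the Sox9cKO-named list (orange), 1 library each. Rps24 to Zmiz1 has 226.8 and 189.1 kb, Atp5g3 to Lnpk 79.6 and 102 kb, and the deserts beside Sox9 lie near the middle of the order.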

How the data were processed

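H3K27ac chromatin immunoprecipitation and sequencing of mouse limb buds was deposited as 1 peak list per library, with a position and a score for each peak. The deposited score has no stated meaning, and served only for ranks inside its own list. Genome build mm10, CASAVA 1.8 and deepTools are named per the submitters' processing notes, and the deposited peak names point to MACS. Caller version and settings, aligner and input use: not given in the sources used here. Every list belongs to 1 sample, and the depth in reads is unknown. The series' 20 remaining samples (other marks, input DNA) were not analysed here.

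Lists were cut to the 28419 top peaks, merged by 1 bp overlap, and summed over 21887 RefSeq protein-coding genes with 20 kb on each side. Gene starts came from RefSeq promoters for 17492 genes, and either gene end was used for 4395. Lists of 338 distinct genes were all matched by symbol. With 1 library a side no test was made. A difference was counted past 2-fold and 2 kb.

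Members and gene lists were chosen with earlier results of these data known. Named were Sox9, the limb identity genes, up to 3 differences each way of each list, the 10 largest each way past 2-fold, the 8 highest or largest regions, deserts and gene starts each way, and any cartilage matrix gene or regulator. The regions with shifted rank, the HoxA, HoxD, Sox5 and Sox6 deserts and the genes without a fold limit were named after their values were seen. The alternatives were all peaks, the top 10000, pairing by sample title, a 50% overlap, windows of 5 and 100 kb, gene ends within 2500 bp, 1.5-fold, autosomes alone and scaled length. The E11.5 control as partner and the CG counts were added after the data were seen. The software was matplotlib 3.10.9, scipy 1.17.1, pandas 2.3.3 and numpy 2.4.6 under Python 3.11.15, and the scripts were tested on simulated data.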

Additional observations from a re-analysis of the deposited data

How the results depend on the processing

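With 1 library a side, no value has a replicate check, and the number and width of peaks move with the unknown depth. No paired analysis was possible because each group had 1 library and the labels carry no replicate numbers. The share of control peaks overlapped was 75.8% with all peaks, 90.7% with the top 10000, 72.8% by sample title, 81.9% at 50% overlap and 78.1% for the E11.5 control as partner. The share of Sox9cKO-named peaks overlapped was 87.8%, 90.95%, 75.8%, 82.9% and 73.6% in the same order. Genes past the threshold downward numbered 408 with the top 10000, 481 by title and 383 at 1.5-fold. Upward they numbered 57 with all peaks, 366 with the top 10000, 376 by title, 60 with 5 kb windows, 186 at 1.5-fold and 532 against the E11.5 control. Gene starts marked in the control alone numbered 529 with all peaks, 213 by title and 1055 against the E11.5 control, and those in the other list alone 1047 by title and 195 against the E11.5 control. Deserts past the threshold downward numbered 135 with all peaks, 331 by title, 151 at 1.5-fold and 38 against the E11.5 control. Upward they numbered 21 with all peaks, 78 at 1.5-fold and 339 against the E11.5 control. Rank shifts downward numbered 1585 with all peaks, 239 with the top 10000, 1758 by title and 1243 against the E11.5 control, and upward 351, 187, 1527 and 1529. The cartilage matrix median over all 33 genes, with or without a peak, was -0.334 kb with 5 kb windows. It was 0 kb with the top 10000 or against the E11.5 control. The regulator median was -1.47 kb with all peaks, -0.388 kb with the top 10000, -1.999 kb by title, -0.0611 kb after scaling and 0.2 kb against the E11.5 control. Medians that changed sign against the E11.5 control were those of condensation (0.802 kb), limb patterning (0.237 kb), limb identity (1.10 kb), BMP and joint (0.523 kb), tendon (3.34 kb) and housekeeping genes (0.121 kb). By title the sign changed for limb patterning (0.299 kb), limb identity (0.241 kb), ectoderm (0.596 kb), nerve (0.045 kb) and housekeeping genes (0.353 kb). After scaling it changed for limb patterning (0.116 kb), limb identity (0.483 kb) and housekeeping genes (0.212 kb), and housekeeping genes also had 0.037 kb with the top 10000, 0.0175 kb on autosomes and 0.104 kb with 5 kb windows. Among 36 named genes, all past the threshold, those that changed sign against the E11.5 control were Fbn2 (1.75 kb), Bcl2 (2.54 kb), Ankfn1 (2.42 kb), Mef2c (2.32 kb), Cnmd (1.007 kb), Papss2 (0.222 kb), Csgalnact1 (1.30 kb) and Nog (0.067 kb). By title they were Lmo7 (-0.164 kb), Fam240b (-1.18 kb), Bmp5 (-3.52 kb), Piwil4 (-0.392 kb), Fut4 (-1.09 kb), 1700012B09Rik (-1.006 kb), Tbx5 (28.8 kb), Alpl (-0.227 kb) and Grhl2 (1.04 kb), and with the top 10000 Fmn1 (-1.97 kb), Mrps28 (-0.064 kb) and 1700012B09Rik (-0.172 kb). Other genes named in the report that turned with the top 10000 were Xylt1, Creb5, Cdh2, Prrx2, Gli3 and Pitx1, and with all peaks Nfia and Creb5. Of the 36, 36 kept their direction with all peaks, 35 with 5 kb windows, 17 with the top 10000, 27 by title and 26 against the E11.5 control. With all peaks 33 of the 36 also stayed past the threshold. The cause of these changes was not tested.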
